A study of Mus musculus with 8 samples.

Results

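Oscillospiraceae, Ruminococcaceae and Butyricicoccaceae are families of the order Oscillospirales, strictly anaerobic Clostridia that live in the gut of mice and people. They are described here in stool of 8 female mice as amplicon sequence variants (ASVs), the distinct read sequences that DADA2 infers from 16S amplicons. A member is any ASV whose deposited taxonomy string names 1 of the 3 families and that had at least 1 read, which gave 77 of the 434 ASVs seen. Oscillospiraceae held 47 of them, Ruminococcaceae 25 and Butyricicoccaceae 5. Together they held 37101 of 914504 reads, or 4.06%. The ASVs are identified in the deposited table by taxonomy alone, so numbers such as ASV3608 give the position of a variant in that table.

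The animals were 4 Gpr15l-/- mice (genotype ko, called knockouts) and 4 control mice (genotype wt). The labels call them littermates and co-housed for 8 weeks before stool was taken. Gpr15l encodes a secreted ligand of GPR15, a receptor that guides T cells to the colon and skin. Neither the labels nor the series text state the age, strain, cage, litter or sequencing run of a mouse, or the extent of the deletion. Mice were numbered 1 to 4 within a genotype in order of deposit, so equal numbers pair nothing. The question was whether these bacteria differ between littermates of either genotype that live together.

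Many bacteria of these families ferment plant fibre or its breakdown products, and several make butyrate, the short-chain fatty acid that colon cells burn as fuel. Butyrate also favours regulatory T cells in the colon wall, which is why these families are followed in studies of gut immunity. Most are hard to grow, and many are known from sequence databases alone. Of the 77 ASVs, 25 had no genus name (13 stopped at the family and 12 were filed as Incertae Sedis), and these held 24.2% of the reads of the 3 families.

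Library depth went with genotype, since each knockout library (129792 to 226654 reads) was deeper than each control library (38578 to 122026 reads). Its part in the results was not tested beyond the depth adjustments given below. Muribaculaceae, the leading family of the series, made up 13.6% of reads in control 2, 31.2% to 52.5% in the other controls, 66.4% and 65.7% in knockouts 1 and 4, and 48.2% and 43.7% in knockouts 2 and 3. The scaling factor of the test (TMM) at the level of ASVs was 0.52 in knockout 1 against 0.70 to 1.38 in the other 7 mice. In knockout 1 it was 0.44 for genera, against 0.59 to 1.46 in the others, and 0.40 for families, against 0.65 to 1.42.

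No difference between genotypes beyond the spread between mice was seen for the 3 families together, whose summed share was not tested. Their summed share of reads was 1.71%, 4.81%, 7.18% and 2.62% in knockouts 1 to 4, and 3.09%, 4.16%, 7.43% and 4.67% in controls 1 to 4. The values of the genotypes overlapped, with knockout 1 lowest and control 3 highest. Knockouts had a mean of 4.08% ± 2.44 (SD, n = 4) and controls one of 4.84% ± 1.85 (SD, n = 4). The 95% Wilson interval of a share of any single family, genus or ASV in a mouse reached at most 0.190 percentage points to either side, which covers counting error only.

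**Figure D1:**
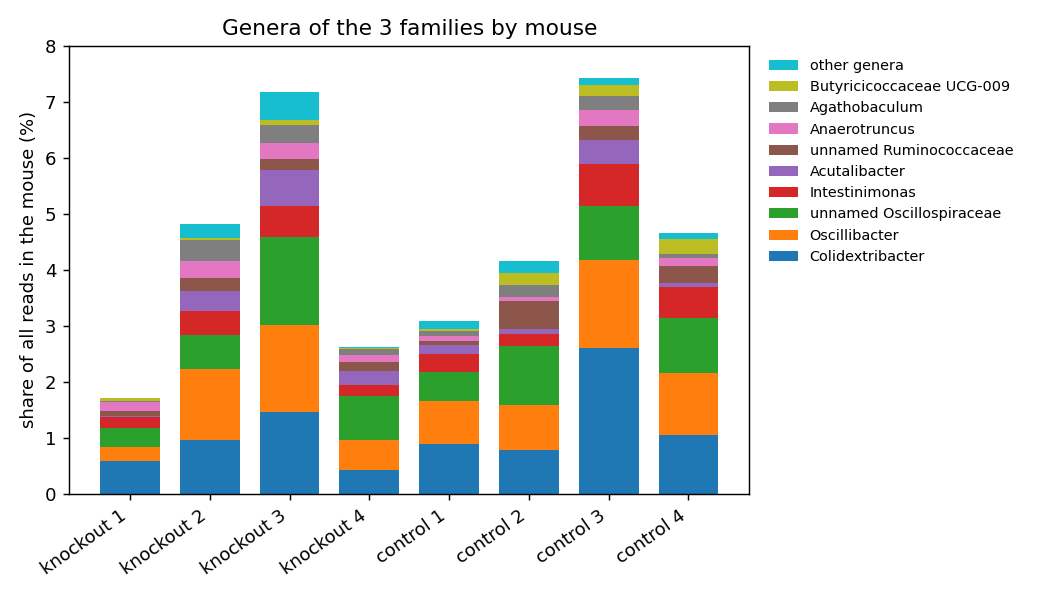
Stacked bars show the share of all reads in each of the 8 mice (y axis, percent) that belonged to genera of the 3 families, with the 9 largest genera in colour and the rest joined as other genera. Bar heights run from 1.71% in knockout 1 to 7.43% in control 3 and overlap between genotypes.

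Oscillospiraceae, the largest of the families, made up 1.36%, 3.26%, 5.13% and 1.94% of reads in knockouts and 2.51%, 2.89%, 5.89% and 3.69% in controls. Knockouts 1 and 4 lay below all controls, while knockout 3 lay above 3 of them. The fitted log2 fold change of knockout over control was -0.034 ± 0.37 (SE, edgeR adjusted p = 0.999), and the difference of mean shares was -0.823 percentage points (two-sided exact permutation p = 0.457, adjusted p = 0.743). Ruminococcaceae, a family with several fibre degraders, made up 0.287%, 1.15%, 1.62% and 0.545% in knockouts and 0.465%, 0.814%, 1.09% and 0.642% in controls. Its log2 fold change was 0.49 ± 0.43 (edgeR adjusted p = 0.840). Butyricicoccaceae, a family of butyrate producers, made up 0.0644%, 0.404%, 0.423% and 0.136% in knockouts and 0.123%, 0.451%, 0.449% and 0.332% in controls, with a log2 fold change of -0.23 ± 0.54 (edgeR adjusted p = 0.915). Over the series edgeR called 2 of 39 families (5.13%), none of these 3, and 5 of 39 (12.8%) had an unadjusted p below 0.05, again none of these 3. DESeq2, limma-voom and centred log-ratios also called none of the 3. The exact permutation test of shares, whose smallest p is 0.0286 for 4 against 4 mice, called 0% of families and 0% of genera in the series. With that floor, no family or genus could pass after adjustment unless many others also reached the smallest p. The 0% therefore says little about the shares.

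Within the 3 families, Colidextribacter and Oscillibacter led. Colidextribacter, a strictly anaerobic gut genus, held 23.8% of their reads in 12 ASVs. Oscillibacter, a genus whose cultured members make valerate or butyrate, held 21.9% in 7 ASVs. Unnamed Oscillospiraceae held 19.5% in 17 ASVs, Intestinimonas 9.11% in 10, Acutalibacter 6.12% in 9, Anaerotruncus 4.84% in 3, unnamed Ruminococcaceae 4.65% in 7 and Agathobaculum 4.13% in 3. The remaining 7 genus groups, from Ruminococcus (2.42%) down to unnamed Butyricicoccaceae (3 reads), held less.

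Their order was not the same in every mouse. As a percentage of the reads of the 3 families, Colidextribacter ranged from 16.6% in knockout 4 to 35.1% in control 3, and Oscillibacter from 14.5% in knockout 1 to 26.3% in knockout 2. Unnamed Oscillospiraceae ranged from 12.7% in knockout 2 to 29.4% in knockout 4. Unnamed Ruminococcaceae reached 11.8% in control 2 and lay between 2.46% and 6.39% in the other mice.

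No genus of the 3 families passed the test between genotypes. edgeR put 6 of the 12 genus groups tested above a log2 fold change of 0 and 6 below it, with a median of 0.022 against 0.056 for all 76 genera. Scaling by total reads put 4 above and 8 below, with medians of -0.35 and -0.33, and centred log-ratios put 8 above and 4 below. At an unadjusted p below 0.05 there were 0 of the 12, against 6 of 76 (7.89%) in the series, and edgeR called 1 of 76 (1.32%) after adjustment, a genus outside these families. DESeq2, limma-voom and centred log-ratios called none of the 12.

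Colidextribacter made up 0.592%, 0.965%, 1.45% and 0.434% of reads in knockouts and 0.885%, 0.780%, 2.60% and 1.06% in controls. Control 3 stood above the other 7 mice, and the genotypes overlapped. The log2 fold change was -0.12 ± 0.44 (edgeR adjusted p = 0.958). Oscillibacter made up 0.249%, 1.26%, 1.55% and 0.535% in knockouts and 0.769%, 0.811%, 1.58% and 1.10% in controls. Its value in knockout 1 was the lowest of all, and its log2 fold change was 0.056 ± 0.39 (edgeR adjusted p = 0.989).

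Intestinimonas, which can make butyrate from sugars and from the amino acid lysine, made up 0.189%, 0.418%, 0.538% and 0.199% in knockouts and 0.325%, 0.215%, 0.760% and 0.553% in controls. Both knockout 1 and knockout 4 were below every control, and the other 2 knockouts lay inside the range of the controls (log2 fold change -0.011 ± 0.50, edgeR adjusted p = 0.989). Agathobaculum, a butyrate producer of the Butyricicoccaceae, made up 0.0221%, 0.373%, 0.323% and 0.116% in knockouts and 0.0824%, 0.218%, 0.261% and 0.0738% in controls. The spread within knockouts exceeded the difference between genotypes (log2 fold change 0.61 ± 0.71, edgeR adjusted p = 0.958).

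Anaerotruncus and the Butyricicoccaceae group UCG-009 had the smallest p-values among the genera, in opposite directions. Anaerotruncus, whose cultured species makes acetate and butyrate, made up 0.171%, 0.313%, 0.270% and 0.125% in knockouts and 0.0972%, 0.0674%, 0.289% and 0.152% in controls. Controls 1 and 2 lay below all knockouts, while control 3 lay above 3 of them. The log2 fold change was 1.12 ± 0.59 (edgeR unadjusted p = 0.0915, adjusted p = 0.788). UCG-009, an uncultured group represented by ASV3496 alone, made up 0.0424%, 0.0309%, 0.1002% and 0.0199% in knockouts and 0.0401%, 0.226%, 0.188% and 0.258% in controls. Controls 2, 3 and 4 lay above all knockouts and control 1 lay among them. Its log2 fold change was -1.38 ± 0.76 (edgeR unadjusted p = 0.104, adjusted p = 0.788).

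Acutalibacter, a genus with a species isolated from mouse caecum, ran from 0.0256% in knockout 1 to 0.656% in knockout 3, while controls spanned 0.0819% to 0.421% (log2 fold change 1.11 ± 0.76, edgeR adjusted p = 0.835). Unnamed Oscillospiraceae spanned 0.334% to 1.59% in knockouts against 0.526% to 1.05% in controls, with an edgeR adjusted p of 0.958. Unnamed Ruminococcaceae spanned 0.0838% to 0.227% in knockouts against 0.0761% to 0.490% in controls (edgeR adjusted p = 0.958). All 3 groups overlapped between genotypes.

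The small genera were patchy. Ruminococcus, a genus with cellulose and starch degraders, had reads in 5 of 8 mice and reached 0.428% in knockout 3 and 0.159% in knockout 2, with 0 reads in knockout 1, control 2 and control 3. With no reads the share could still be as high as 0.00132% in knockout 1, 0.00778% in control 2 and 0.00495% in control 3 (3 reads of each library). Harryflintia, an acetate producer, was seen in 7 mice at up to 0.0859%. The [Eubacterium] siraeum group, which degrades plant cell walls, was seen in 6 mice, in knockouts 2 and 3 at 0.0208% and 0.0177% and in all controls at 0.0107% to 0.0959%. Oscillospira, a genus of large cells that is rarely cultured, had 14 reads in control 2 and 10 in control 4. Paludicola had 16 reads in knockout 2 and 20 in control 4, and unnamed Butyricicoccaceae 3 reads in control 2. The edgeR adjusted p was 0.958 for Ruminococcus and for Harryflintia and 0.788 for the siraeum group, and the other 3 had too few reads to test.

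Of the 11 butyrate-linked genera listed for these families, 4 were present, namely Oscillibacter, Intestinimonas, Agathobaculum and Anaerotruncus, with 23 ASVs. Flavonifractor, Pseudoflavonifractor, Lawsonibacter, Faecalibacterium, Butyricicoccus, Subdoligranulum and Anaerofilum had 0 reads under those names. The 4 genera summed to 1.66% ± 1.013 (SD, n = 4) of knockout reads and 1.84% ± 0.752 (SD, n = 4) of control reads, from 0.631% in knockout 1 to 2.89% in control 3. Of their 17 ASVs with enough reads to test, 9 were higher and 8 lower in knockouts by edgeR, none past the test. Their median log2 fold change was 0.19, and the median of all 265 ASVs tested was 0.19 too. Scaling by total reads gave 5 higher and 12 lower, with medians of -0.27 for these ASVs and -0.33 for all 265. DESeq2 gave 6 and 11, with medians of -0.095 and -0.075. Limma-voom gave 10 and 7, with medians of 0.046 and 0.24, and centred log-ratios 8 and 9, with medians of -0.042 and 0.16.

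At the level of single ASVs, edgeR tested 47 of the 77, those that reached 10 reads in 3 or more mice. The other 30 held 2.49% of the reads of the 3 families. None of the 47 passed, as was the case for all 265 ASVs tested in the series (0%). At an unadjusted p below 0.05 there were 0 of the 47, against 34 of 265 (12.8%). The corresponding number among the 47 was 2 with DESeq2, 3 with limma-voom and 3 on centred log-ratios, and none of these tools called a member after adjustment. Log2 fold changes were above 0 for 22 and below 0 for 25, and their median was -0.0040, where that of all ASVs was 0.19. Scaling by total reads only gave 11 above and 36 below, with medians of -0.56 for the members and -0.33 for all ASVs, and DESeq2 gave 15 above and 32 below, with medians of -0.22 and -0.075. By family the medians were -0.0027 for 30 Oscillospiraceae, 0.028 for 14 Ruminococcaceae and -1.44 for 3 Butyricicoccaceae.

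**Figure D2:**
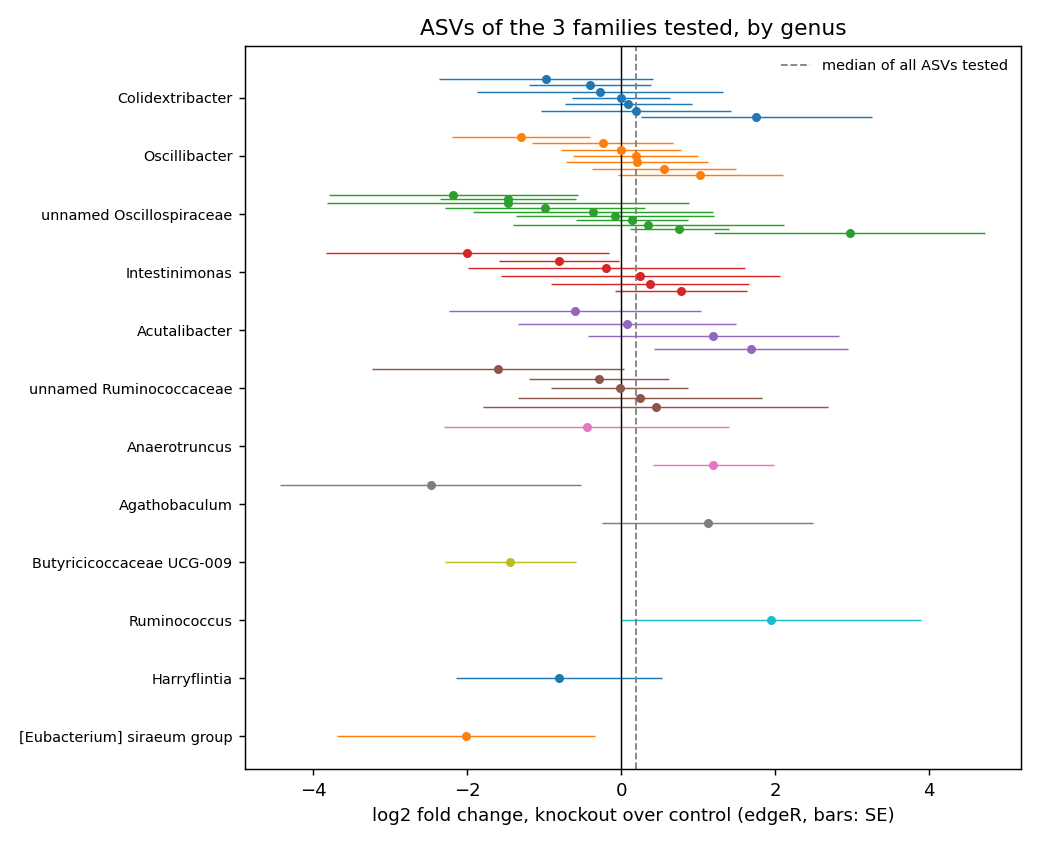
Each point is 1 of the 47 ASVs tested, placed by its edgeR log2 fold change of knockout over control (x axis, bars show the SE) beside the name of its genus (y axis). Points lie on both sides of 0 in 8 of the 12 genera drawn, which are all the genera with more than 1 ASV tested, and the dashed line marks the median of all 265 ASVs at 0.19.

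The most abundant member was ASV3608, an Oscillospiraceae without a genus name. It made up 0.0988%, 0.359%, 1.08% and 0.579% of reads in knockouts and 0.218%, 0.5003%, 0.415% and 0.422% in controls. The lowest and the highest value were both those of knockouts (log2 fold change 0.76 ± 0.65, edgeR adjusted p = 0.799), and without knockout 3 the log2 fold change was 0.015. It led the reads of the 3 families in 4 mice and held 22.1% of them in knockout 4.

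Variants of Oscillibacter differed in which mice held most of them. ASV3575 made up 0.0476%, 0.393%, 0.730% and 0.195% in knockouts and 0.106%, 0.397%, 0.804% and 0.338% in controls (log2 fold change -0.0040 ± 0.78, edgeR adjusted p = 0.999). ASV3589 reached 0.576% in knockout 2 and was at 0.0146% in knockout 1 and 0.0259% in control 2. ASV3573 was lower in each knockout, at 0.0741%, 0.0683%, 0.0239% and 0.0499%, than in each control, at 0.410%, 0.163%, 0.0958% and 0.223%. Its log2 fold change was -1.30 ± 0.90 (edgeR unadjusted p = 0.178, adjusted p = 0.692). The size moved with the scaling, to -2.04 by total reads (edgeR unadjusted p = 0.0499, adjusted p = 0.456). It was -1.66 with DESeq2, -1.51 with limma-voom and -1.48 on centred log-ratios. The leading Oscillibacter variant was ASV3575 in 5 mice, ASV3589 in knockout 2, ASV3584 in knockout 1 and ASV3573 in control 1, where it held 53.3% of the genus.

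Shares of 3 of the 47 ASVs did not overlap between genotypes, and all 3 were lower in knockouts. In the series 26 of 265 ASVs (9.81%) were separated in this way, in either direction. Besides ASV3573 they were ASV3502 of Colidextribacter, at 0.0366% to 0.131% in knockouts and 0.154% to 0.253% in controls, and ASV3604, filed under Oscillospiraceae Incertae Sedis, at 0.0153% to 0.0282% and 0.0582% to 0.161%. Neither passed the test (edgeR log2 fold change -0.41 ± 0.79, adjusted p = 0.999 for ASV3502, and -1.47 ± 0.88, adjusted p = 0.593 for ASV3604). For ASV3502 the log2 fold change was -1.06 by total reads, -0.63 with DESeq2, -0.68 with limma-voom and -0.71 on centred log-ratios.

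Colidextribacter was led by ASV3517 in 6 mice and by ASV3511 in knockout 2 and control 3. ASV3517 was seen in all 8 mice, at 0.164% to 0.576% in knockouts and 0.231% to 0.713% in controls. ASV3511 was at 0.993% in control 3, had 0 reads in knockout 1 and lay between 0.0951% and 0.273% in the other 6 mice. ASV3507 was at 0.393% in control 3 and between 0.0519% and 0.192% elsewhere. Log2 fold changes of these 3 were -0.0013 ± 0.64, -0.98 ± 1.40 and 0.094 ± 0.82, with edgeR adjusted p of 0.980 or higher.

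Intestinimonas had 3 leading variants, ASV3541 in knockouts 1 and 3 and control 2, ASV3525 in knockouts 2 and 4, and ASV3540 in controls 1, 3 and 4. ASV3540 spanned 0.0299% to 0.113% in knockouts against 0.0700% to 0.306% in controls (log2 fold change -0.81 ± 0.78, edgeR adjusted p = 0.845). Among Ruminococcaceae, ASV3070 of Acutalibacter ran from 0.00397% in knockout 1 to 0.496% in knockout 3 (log2 fold change 1.69 ± 1.26, edgeR adjusted p = 0.709). ASV3049 held 71.7% to 100% of Anaerotruncus reads in every mouse, with 0.125% to 0.287% of all reads in knockouts and 0.0674% to 0.259% in controls (log2 fold change 1.20 ± 0.78, edgeR adjusted p = 0.662).

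ASV3583, an Oscillospiraceae without a genus name, met the filter on low counts through the knockouts alone, so that a higher value there was built in. It had 42, 19, 53 and 13 reads in knockouts 1 to 4, and in controls 9 reads in control 3 and 0 in the others. The share was 0.00864% to 0.0408% in knockouts, and the limits that 0 reads leave are 0.00634% for control 1, 0.00778% for control 2 and 0.00246% for control 4. The fitted log2 fold change of 2.97 ± 1.76 (edgeR adjusted p = 0.589) is therefore a description. It rested on control 3, without which it was 7.69 (edgeR adjusted p = 0.432), a value against 0 reads that is no bound. Over all alternatives the adjusted p of this ASV lay between 0.281 (limma-voom) and 0.985. The UCG-009 variant ASV3496 had the smallest unadjusted p of all members (0.120, edgeR adjusted p = 0.588).

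Every mouse carried 20 of the 77 ASVs (26.0%), and 21 (27.3%) were found in 1 mouse alone. Among the 357 other ASVs the corresponding values were close, at 28.9% and 26.1%. The ASVs carried by every mouse held 70.02% of the reads of the 3 families, and those of the other families 85.5% of the other reads. ASVs found in 1 mouse held 1.15% and 0.325%. By family, 15 of 47 Oscillospiraceae, 4 of 25 Ruminococcaceae and 1 of 5 Butyricicoccaceae were seen in every mouse. As for all 434 ASVs, 0 members were carried by every mouse on one side and by none on the other. Reads in knockouts alone were found for 13 members and in controls alone for 11, against 85 and 35 of the 357 other ASVs. This difference was not tested, and the deeper libraries were those of the knockouts.

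**Figure D3:**
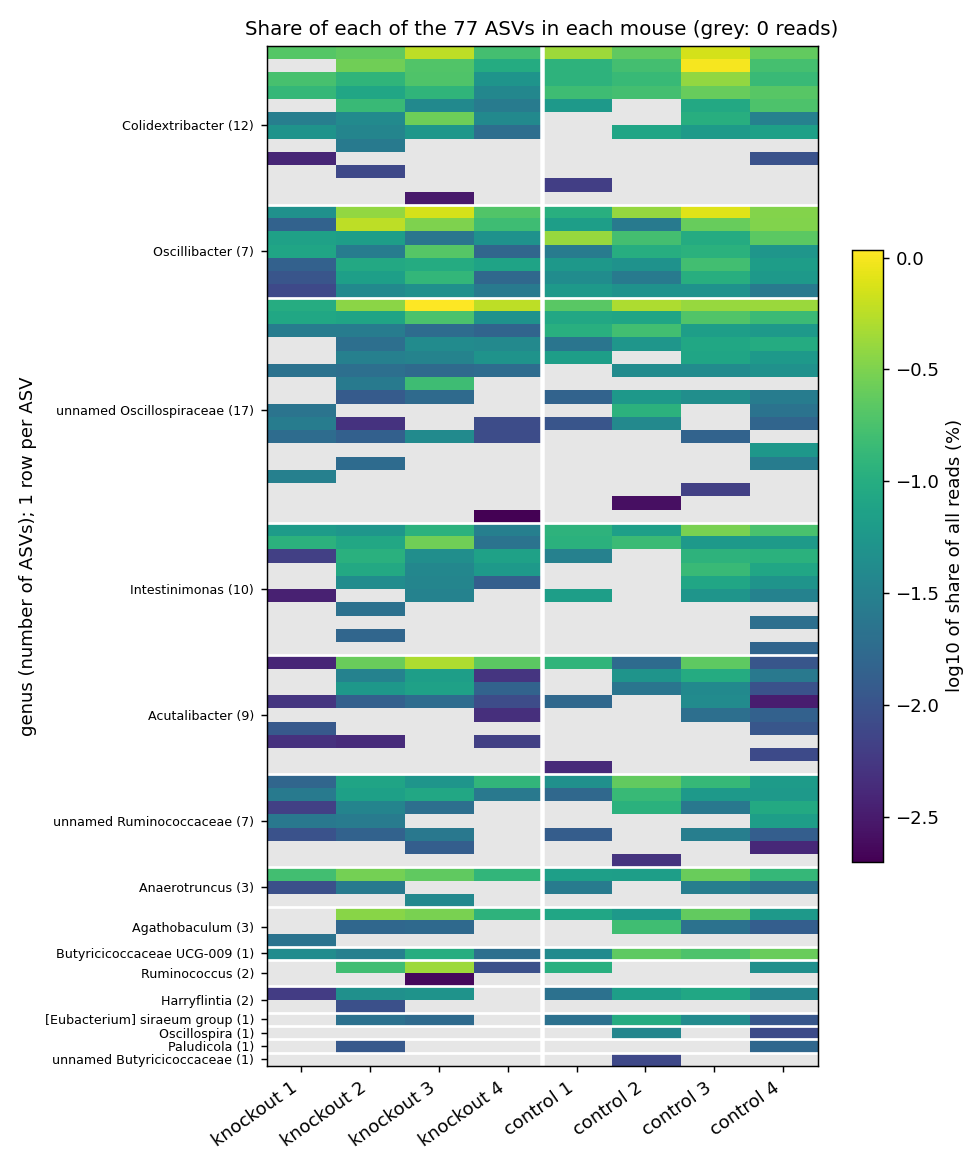
Each row is 1 of the 77 ASVs, grouped by genus with the number of ASVs in brackets, each column a mouse, and colour the log10 of the share of all reads in percent, with grey for 0 reads. Grey cells are spread over both genotypes, and knockout 1 is grey for ASV3511 of Colidextribacter and ASV2991 of Agathobaculum, which all other mice carry.

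Knockout 1 lacked ASVs that the other mice shared, although it was the deepest library. Of its absences, 3 concerned ASVs seen in all 7 other mice, namely ASV2991 of Agathobaculum, ASV3511 of Colidextribacter and ASV3601 of Oscillospiraceae Incertae Sedis. The lowest share of any of them in another mouse was 0.0201%, well over the limit of 0.00132% that 0 reads leave in knockout 1. Controls 1 and 2 lacked 2 such ASVs each and knockout 4 lacked 1. The leading Agathobaculum variant differed between mice. ASV2991 held between 82.2% and 100% of Agathobaculum reads in 6 mice. Control 2 was led by ASV2989, with 72.6% of the genus. All 50 Agathobaculum reads of knockout 1 were ASV2992, which had 0 reads in every other mouse.

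At equal depth the number of member ASVs overlapped between genotypes. With every library brought to 38578 reads, 37.9, 53.7, 47.4 and 39.2 members were expected in knockouts 1 to 4 and 37.0, 38.0, 45.0 and 56.5 in controls 1 to 4. Means were 44.6 ± 7.41 and 44.1 ± 9.01 (SD, n = 4 each). Oscillospiraceae accounted for 28.9 ± 3.95 and 28.0 ± 5.21 of them and Ruminococcaceae for 13.1 ± 3.21 and 13.1 ± 3.84. At an equal 1464 reads of the 3 families the means were 44.7 ± 6.79 and 44.0 ± 8.87. The Shannon index over the members averaged 3.18 ± 0.148 for knockouts and 3.31 ± 0.157 for controls. These totals over the members were described and not tested.

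**Figure D4:**
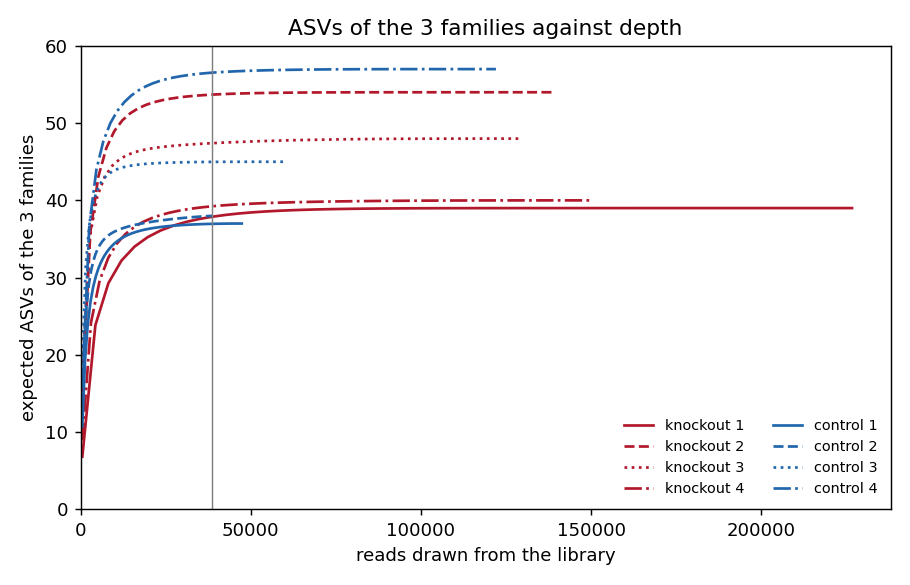
Lines give the expected number of ASVs of the 3 families (y axis) when a number of reads (x axis) is drawn from each library, in red for knockouts and blue for controls, with a grey line at 38578 reads. The curves are nearly flat at the grey line, where they lie between 37.0 and 56.5, and control 4 and knockout 2 are the highest.

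Shares of most genera of the 3 families were positively related across mice. Of the 36 pairs among the 9 genus groups that had reads in every mouse and averaged 0.1% or more, 33 had a Pearson r of log2 shares above 0, with a median of 0.54 and a range from -0.082 to 0.91. Over all 561 pairs of 34 genera of the series, 398 were above 0, with a median of 0.35. Shares add up to a whole, and mice of a cage may be alike, so the points are not free of each other. On centred log-ratios the median of the 36 pairs fell to 0.27, with 27 above 0, and the median of all 561 fell to 0.16.

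The pair with the smallest p was Colidextribacter with Intestinimonas. From knockouts 1 and 4, the lowest in both, to control 3, the highest in both, r was 0.91 (two-sided exact permutation p = 1.74e-04, adjusted p = 0.0487 over the 561 pairs). Spearman's rho was 0.95 (exact permutation p = 0.00114, adjusted p = 0.0963). Without knockout 4 and control 3, the 2 mice farthest from the median of Colidextribacter, r was 0.90, and it was 0.90 with the genotype means subtracted. In the series 2 of 561 pairs (0.357%) passed with Pearson's r and none with Spearman's rho. The call did not hold on centred log-ratios (r = 0.86, exact permutation adjusted p = 0.264). With genotype means subtracted the exact permutation adjusted p was 0.344. With any 1 mouse left out it was 0.0835 to 0.204, and r was 0.88 to 0.95. Fewer pairings remained in both of these checks, so passing was hard at any r. That the pair did not pass them therefore says little about it.

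Oscillibacter went with Intestinimonas (r = 0.86, rho = 0.90, exact permutation p = 0.00317 and 0.00456, adjusted p = 0.103 and 0.150) and Acutalibacter with Agathobaculum (r = 0.87, rho = 0.86, exact permutation p = 0.00608 and 0.0107, adjusted p = 0.112 and 0.177), without passing. The first had an r of 0.85 without knockouts 1 and 4, and the second fell to 0.63 without knockouts 1 and 3. The lowest r, -0.082, was that of Anaerotruncus with UCG-009. Anaerotruncus also had an r of -0.033 with unnamed Ruminococcaceae, and UCG-009 one of -0.053 with Acutalibacter. With genotype means subtracted these became 0.34, 0.14 and 0.075. Both went with other genera, though none of those pairs passed. Anaerotruncus had an r of 0.65 with Intestinimonas and 0.56 with Colidextribacter. UCG-009 had one of 0.70 with unnamed Ruminococcaceae and 0.61 with Colidextribacter.

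**Figure D5:**
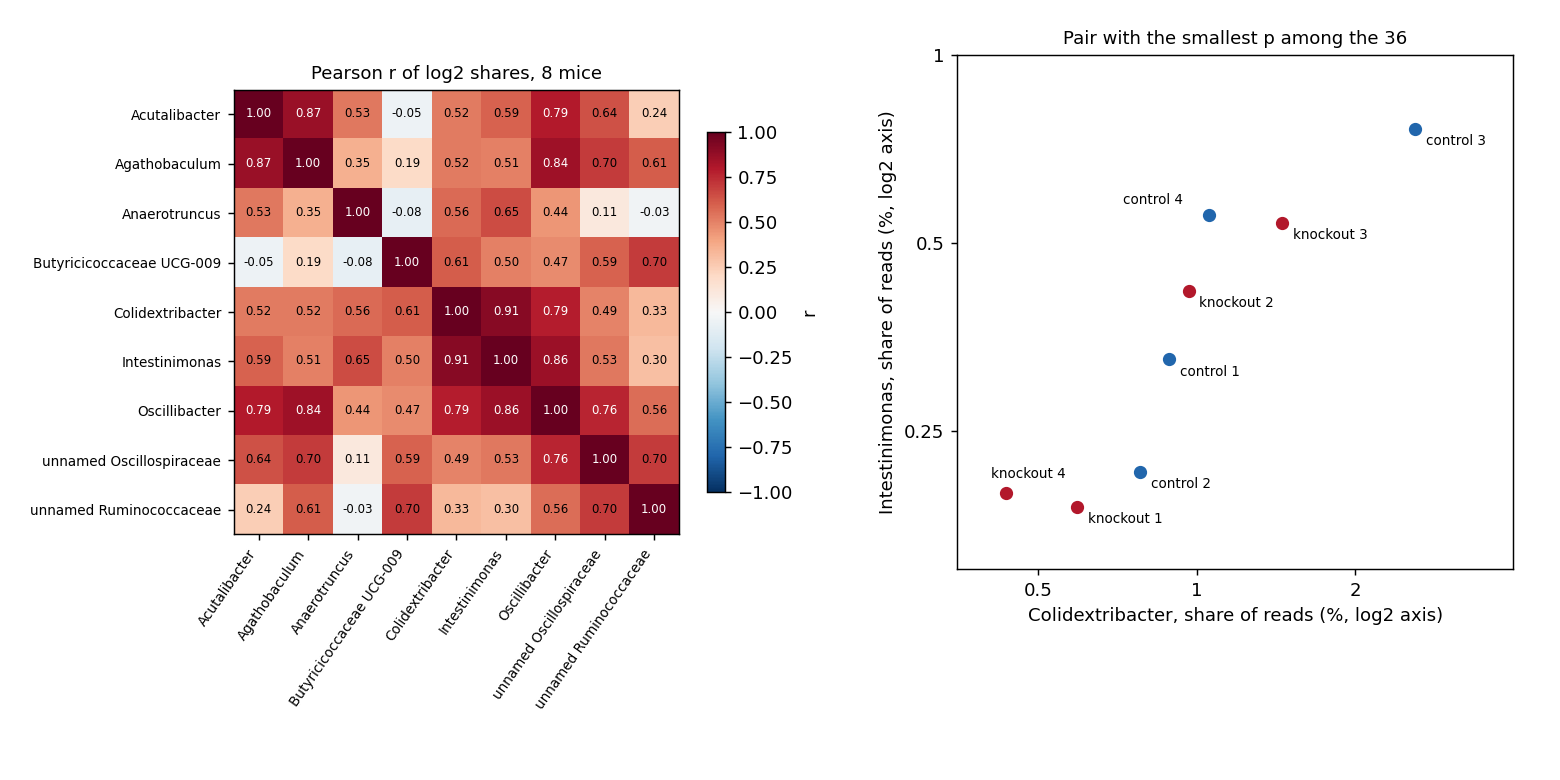
The left panel gives Pearson's r of log2 shares over the 8 mice for each pair of the 9 genus groups, from blue (-1) through white (0) to red (1). The right panel plots Intestinimonas against Colidextribacter as shares of reads in percent on log2 axes, 1 point per mouse, red for knockouts and blue for controls, with knockouts 1 and 4 at the lower left and control 3 at the upper right.

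The summed share of the 3 families followed that of Lachnospiraceae, the other large family of Clostridia in these mice. Lachnospiraceae made up 3.32%, 14.4%, 16.5% and 6.17% of reads in knockouts and 7.00%, 14.2%, 20.8% and 13.3% in controls. The ratio of the 3 families to Lachnospiraceae stayed between 0.29 in control 2 and 0.52 in knockout 1, with a mean of 0.427 ± 0.0746 (SD, n = 4) for knockouts and 0.361 ± 0.0614 (SD, n = 4) for controls. Over the same mice the summed share ranged from 1.71% to 7.43%. As a part of all Clostridia reads the 3 families made up 27.01% ± 4.59 and 23.8% ± 3.79, and Clostridia as a whole 15.8% ± 9.77 and 20.7% ± 7.64 of reads.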

How the data were processed

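Stool DNA of 8 mice was amplified over V4 of the 16S rRNA genes and read on a MiSeq, per the labels' protocols. The authors deposited counts of reads per ASV, by DADA2 going by the name of the table. R 4.5.1 and limma are listed, with no step attached, per the submitters' processing notes. No source used here gives the read filters or the taxonomy reference. Of 3697 ASVs, 434 had reads; 479 further ASVs of the 3 families had 0 reads in these mice. ASV sequences were not used here.

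Counts of all ASVs, 105 genera and 53 families were tested with edgeR 4.0.16 (R 4.3.3; TMM factors, robust quasi-likelihood, at least 10 reads in at least 3 mice), with Benjamini-Hochberg adjustment over all 265, 76 or 39 units tested and a threshold of 0.05. Standard errors were taken from the fold change and its F statistic. The script was tested on simulated data. Shares were compared by exact permutation over 70 assignments, and covariation over 40320 pairings (576 with genotype means subtracted), adjusted over the whole series. Expected richness is hypergeometric. Alternatives were DESeq2 1.42.0, limma-voom and centred log-ratios (limma 3.58.1, pseudocount 0.5), other scalings, filters and denominators, log2 library size as a covariate, and leaving out mice. Python 3.11.15, NumPy 2.4.6, SciPy 1.17.1 and pandas 2.3.3 were used.

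The named taxa are the 3 families, each genus in them, the 12 members of highest mean share, the 5 of smallest p and the 3 genus pairs of smallest p; others were chosen after their values were seen. The members and lists were chosen with earlier results of these data known. All p-values treat the mice as independent, although mice of a cage or litter may not be. Reads without molecular identifiers are not independent molecules, so floors of 3 reads and 95% intervals cover counting error only. Incertae Sedis ASVs were counted with the unnamed members of their family.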

Additional observations from a re-analysis of the deposited data

Results flagged for a closer look

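In 8 of 70 groups of 4 mice examined, 1 mouse lay far from the other 3 of its genotype, with a gap to the nearest above the share of the group's range that Dixon's test sets at 95%. Chance gives about 1 in 20 for independent, normally distributed values. Read shares of taxa nested in each other need not be such values, so the 8 cannot be read as an excess. Control 3 was the mouse in 5 of the 8. Its share of Colidextribacter was 2.60% against 0.780% to 1.06% in the other controls, of ASV3511 0.993% against 0.116% to 0.170%, of ASV3507 0.393% against 0.116% to 0.141%, and of Agathobaculum ASV2991 0.239% against 0.0596% to 0.0824%. ASV3511 and ASV3507 are Colidextribacter, so these values share reads.

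In the other 4 cases 1 mouse had reads and the rest of its genotype had 0, where any read gives the largest gap. They were ASV3583 in control 3 (0.0149%), Paludicola in knockout 2 (0.0115%) and in control 4 (0.0164%), and unnamed Butyricicoccaceae in control 2 (0.00778%, 3 reads).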

How the results depend on the processing

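No alternative made a member pass at the level of ASVs, genera, families or shares. For shares, the smallest p of the permutation test made passing after adjustment hard at any difference. At an unadjusted p below 0.05, in place of 0 members, DESeq2 gave 2 ASVs and 1 genus, limma-voom 3 ASVs, total-read scaling 2 ASVs, centred log-ratios 3 ASVs and 1 genus, no low-count filter 4 ASVs and 1 genus, and leaving out knockout 1 with control 2 gave 1 ASV. Leaving out 1 mouse at a time gave 0 to 1 ASVs and 0 to 1 genera. Main edgeR log2 fold changes not given above were 1.13 ± 1.37 for ASV2991 and 0.34 ± 0.44 for unnamed Oscillospiraceae. They were -0.26 ± 0.63 for unnamed Ruminococcaceae and -2.18 ± 1.37 for the siraeum group. Some log2 fold changes changed sign, and the cause was not tested. With limma-voom they were 0.010 for ASV3575, 0.090 for ASV3517, -0.43 for ASV2991, 0.028 for Intestinimonas and 0.0012 for Oscillospiraceae. Centred log-ratios gave 0.011 for ASV3517, -0.049 for ASV3507, -0.70 for ASV2991, 0.13 for Intestinimonas, 0.0043 for unnamed Ruminococcaceae and 0.082 for Oscillospiraceae. DESeq2 gave -0.078 for ASV3507 and 0.12 for Oscillospiraceae. Total-read scaling gave -0.56 for ASV3507, -0.24 for Oscillibacter and -0.088 for unnamed Oscillospiraceae. Without a low-count filter ASV3575 was at 0.0086 and ASV3517 at 0.011, and with 10 reads in 5 mice Intestinimonas was at 0.015 and Oscillospiraceae at 0.099. With library size as a covariate they were 0.59 for ASV3575, 0.19 for ASV3517, 0.23 for ASV3511, -0.78 for ASV3507 and 0.70 for the siraeum group. Without knockout 1 and control 2 they were 0.28 for ASV3575, -0.64 for ASV3507, 0.058 for unnamed Ruminococcaceae, 0.090 for Oscillospiraceae and 0.28 for Butyricicoccaceae. Leaving out 1 mouse at a time gave -0.79 to 0.44 for ASV3575, -0.55 to 0.33 for ASV3517, -1.60 to 0.15 for ASV3511, -0.51 to 0.57 for ASV3507, -0.50 to 0.069 for Colidextribacter, -0.32 to 0.14 for Intestinimonas, -0.041 to 0.11 for Oscillibacter, -0.66 to 0.18 for unnamed Ruminococcaceae, -0.17 to 0.21 for Oscillospiraceae and -0.36 to 0.050 for Butyricicoccaceae. Differences of mean shares, in percentage points, turned positive as parts of Clostridia reads for Oscillospiraceae (1.39), Colidextribacter (0.030), Intestinimonas (0.072), Oscillibacter (0.082) and unnamed Oscillospiraceae (1.25). As parts of reads outside Muribaculaceae they were 0.54 for Oscillospiraceae, 0.042 for Butyricicoccaceae, 0.00088 for Intestinimonas, 0.24 for Oscillibacter and 0.50 for unnamed Oscillospiraceae, and without knockout 1 and control 2 they were 0.020 for Butyricicoccaceae and 0.17 for unnamed Oscillospiraceae. Leaving out 1 mouse at a time moved them between -0.38 and 0.055 for Oscillibacter, -0.31 and 0.11 for unnamed Oscillospiraceae, -0.0050 and 0.11 for Agathobaculum and -0.090 and 0.35 for Ruminococcaceae. The 1 genus pair that passed became 0 on centred log-ratios, with genotype means subtracted, with a minimum share of 0.05%, and without each mouse in turn (0 to 0). With genotype means subtracted or a mouse left out, fewer pairings remained, so that passing was hard at any r. Since all knockout libraries were deeper, depth and genotype cannot be told apart, and an ASV with 0 reads is known only to lie under the share that 3 reads of that library make. No paired analysis was possible because the mice carry no numbers shared between genotypes.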

Other observations

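The makeup inside the 3 families, as Bray-Curtis distances of ASV shares of their reads alone, set knockout 1 apart from the other knockouts. Knockout 1 lay 0.579 from knockout 2 and 0.599 from knockout 4, the largest distance of all pairs, and knockouts 3 and 4 lay 0.286 apart, the smallest. Pairs of knockouts lay 0.432 apart on average, pairs of controls 0.370, and a knockout and a control 0.408. Averaged over the other 7 mice, knockout 1 had a distance of 0.506 and the others 0.363 to 0.428. These distances were described and not tested.

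Among the 20 ASVs seen in every mouse, pairs of the same genus group had a median r of log2 shares of 0.42 (29 pairs, from -0.30 to 0.86). Pairs of different genus groups had one of 0.33 (161 pairs, from -0.67 to 0.89). The 29 include 3 pairs of unnamed Oscillospiraceae and 1 of unnamed Ruminococcaceae, which need not share a genus. The 3 pairs within Colidextribacter had a median of 0.75 and the 21 within Oscillibacter 0.42. In Oscillibacter the 10 pairs among ASV3575, ASV3580, ASV3585, ASV3588 and ASV3589 lay between 0.45 and 0.86, and the pairs with ASV3573 or ASV3584 between -0.30 and 0.42. This grouping was made after the values of r were seen. By Spearman's rho it was not clear-cut. The 10 pairs then lay between -0.048 (ASV3580 with ASV3589) and 0.83, and the pairs with ASV3573 or ASV3584 between -0.45 and 0.69. Over all pairs of these 20 ASVs the lowest r, -0.67, was that of Anaerotruncus ASV3049 with Oscillibacter ASV3573. The highest, 0.89, was that of ASV3514, an Oscillospiraceae without a genus name, with Intestinimonas ASV3540. All points share the 8 libraries.

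Oscillospiraceae outnumbered Ruminococcaceae in every mouse, with a ratio of shares of 2.83 to 4.75 in knockouts (mean 3.58 ± 0.839) and 3.55 to 5.76 in controls (mean 5.03 ± 1.00, SD, n = 4 each). The ranges overlapped, and the difference was not tested.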
